A study of Homo sapiens with 16 samples.

Results

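Cytosolic ribosomal protein genes encode the proteins of the small (40S) and large (60S) ribosomal subunits. They were examined here in breast cancer cells treated with topsentinol L trisulfate (TLT), a sterol with sulfate groups purified from a marine sponge. The genes were chosen by their symbol (RPL, RPS or RPLP followed by a number and, in some, a closing A, X or L, plus RPSA) and selected on a mean normalized value of at least 500 over all libraries. Of 20502 named genes, 81 had such a symbol and 79 reached that mean, 32 of the 40S and 47 of the 60S subunit. The rule used the level, so levels are described without a test, and it did not use the difference between TLT and DMSO. This set of genes was, however, chosen with earlier results of these data known. Just inside the threshold were RPS27L, with a mean of 826, RPL39L with 1048, RPS28 with 1771 and RPS26 with 2309. The symbols just outside were RPL10L, with a mean of 93.2, and RPL3L with 5.40. FAU and GNB2L1, whose products also belong to or bind the ribosome, lack such a symbol and are given with the related genes.

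The RNA came from 8 established human breast cancer lines, each with 1 library of cells given TLT and 1 library of cells given the vehicle DMSO, both lysed after 6 h. The study profiled these lines to derive an expression signature of the response to TLT. The study describes MDA-MB-468, HCC70, HCC1395 and HCC1143 as basal-like and the others, MDA-MB-436, MDA-MB-231, MDA-MB-157 and HCC38, as claudin-low. The labels name the dose as the EC75 and passages 5 to 20 for every sample, and both treatments were given in medium with serum. No source used here gives separate cultures of a line, so a p-value reflects how far the 8 lines vary, and a value within a line has no replicate check. The values are gene estimates divided by the upper quartile of their library, so that 1000 lies near the 75th percentile of the genes above 0. The steps between low values placed the depth at 10.6 to 20.1 M reads in TLT libraries and 12.2 to 18.8 M reads in DMSO libraries. Markers of blood and endothelial cells summed to 3.93 to 68.3 in TLT libraries and 6.97 to 22.5 in DMSO libraries, while the summed epithelial and mesenchymal markers varied widely among the lines. In bulk RNA, fewer cells of a kind and less RNA per cell cannot be told apart.

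The ribosome of the cytosol translates nuclear mRNAs. Its small subunit reads the mRNA, its large subunit joins amino acids, and each mature particle holds a single copy of nearly every one of these proteins. In human cells the genes for them are scattered over the genome, are active in every tissue and are among the most abundant mRNAs. Most of their transcripts begin with a C followed by a run of pyrimidines, the terminal oligopyrimidine (TOP) tract. Through this tract the cap-binding protein LARP1 and the kinase mTORC1 are known to control their translation and stability. AMPK, the energy sensor that the study followed at the protein level, is known to restrain mTORC1.

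Start sites of genes that the results below turn on are shown with and without this feature. RefSeq start sites (GRCh38.p14) were matched by symbol for 63 of the 79 genes. The annotated first base was a C followed by at least 4 pyrimidines in 42 of them (66.7%), against 4.04% of all 27305 promoters of the same table and 8.09% of 309 other genes with a DMSO mean of at least 5000. In the 42 genes the run of pyrimidines from the start measured 5 to 19 bases, with a median of 8. Windows of 15 bases on each side of the start are printed 5′ to 3′, and capitals mark the pyrimidine run where the first base begins such a tract. RPS13, RPL13A, RPL22 and RPL24 are among the largest changes, and RPS6, RPLP0 and RPSA were named for known roles. RPL12, RPL36 and RPL28 are among the smallest changes. RPS27 and RPS27L are a paralog pair. RPL11, also among the largest changes, is shown as a gene without the tract at its annotated start.
RPS13: ttccactctcgctctCCTTTCgttgcctga
RPL13A: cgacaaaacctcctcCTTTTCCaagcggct
RPL22: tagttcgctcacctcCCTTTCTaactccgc
RPL24: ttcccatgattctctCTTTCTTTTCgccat
RPS6: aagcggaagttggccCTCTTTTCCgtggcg
RPLP0: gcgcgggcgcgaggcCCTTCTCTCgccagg
RPSA: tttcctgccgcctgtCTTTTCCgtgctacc
RPL12: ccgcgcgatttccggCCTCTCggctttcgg
RPL36: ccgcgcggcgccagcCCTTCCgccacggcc
RPL28: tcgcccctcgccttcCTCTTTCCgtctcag
RPS27: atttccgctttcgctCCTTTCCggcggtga
RPS27L: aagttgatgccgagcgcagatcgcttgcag
RPL11: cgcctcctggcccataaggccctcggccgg

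These windows lie on chr11:17077653-17077682 (RPS13, minus strand), chr19:49487593-49487622 (RPL13A, plus), chr1:6199581-6199610 (RPL22, minus), chr3:101686704-101686733 (RPL24, minus) and chr9:19380222-19380251 (RPS6, minus). The others lie on chr12:120201097-120201126 (RPLP0, minus), chr3:39406705-39406734 (RPSA, plus), chr9:127451392-127451421 (RPL12, minus), chr19:5690280-5690309 (RPL36, plus), chr19:55385917-55385946 (RPL28, plus), chr1:153990747-153990776 (RPS27, plus), chr15:63157463-63157492 (RPS27L, minus) and chr1:23691764-23691793 (RPL11, plus). RPS27 carried the tract at its annotated start and its paralog RPS27L did not. The tract was present at both ends of the order of change. The 42 genes with it at the annotated start had a median log2 fold change of 0.27, with 37 of 42 called higher. The 21 without it there had 0.26, with 16 of 21. A single annotated start per gene was read, at its exact first base. A gene counted as without the tract may therefore carry it at a start nearby, so this split does not separate TOP mRNAs from others. Among short motifs searched on both strands from 250 bases before to 50 bases after the start, the letters CCGGAAG, which ETS factors are known to bind, occurred in 34.9% of the 63 promoters and in 10.7% of all promoters. Of the 22 genes with CCGGAAG, 21 were called higher, with a median of 0.27, and of the 41 without it 32 were, with a median of 0.26. AAGATGG, bound by YY1, occurred in 12.7% against 6.06% of all promoters, GGGCGG in 55.6% against 44.6%, TATAAA in 5 of 63 against 3264 of all 27305, CACGTG in 4.76% against 7.43% and TGACGTCA in 4.76% against 1.98%. In 309 other genes with a DMSO mean of at least 5000, CCGGAAG occurred in 16.8%, AAGATGG in 9.71% and GGGCGG in 77.0%. TATAAA occurred there in 9.39%, CACGTG in 12.6% and TGACGTCA in 1.62%. GGGCGG was thus less frequent in the members than in these other genes. A match here is a description of letters, and none of these motifs was tested against the change.

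The difference between TLT and DMSO was tested for 14544 genes with limma, on log2(value + 1) and with the cell line as a block. On the deposited scale, 67 of the 79 ribosomal protein genes (84.8%) rose with TLT and none fell at an adjusted p under 0.05 after Benjamini-Hochberg adjustment, where 15.04% of all genes tested were higher and 10.90% lower. With quantile normalization, which gives every library the same distribution of values, only RPS13 and RPL13A were still called higher and 18 of the 79 stood below 0. The changes were small, from 0.09 for RPS27L to 0.42 for RPS13 on the log2 scale, with a median of 0.27, a fold of 1.20, against a median of 0.05 over all genes tested. All 79 fitted changes were positive on the deposited scale. Of the 79 genes, 32 were higher in TLT in 8 of 8 lines, 37 in 7, 8 in 6 and 2 in 5. The TLT and DMSO libraries overlapped in value for all 79, because lines differ in level by more than TLT changed it.

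**Figure D1:**
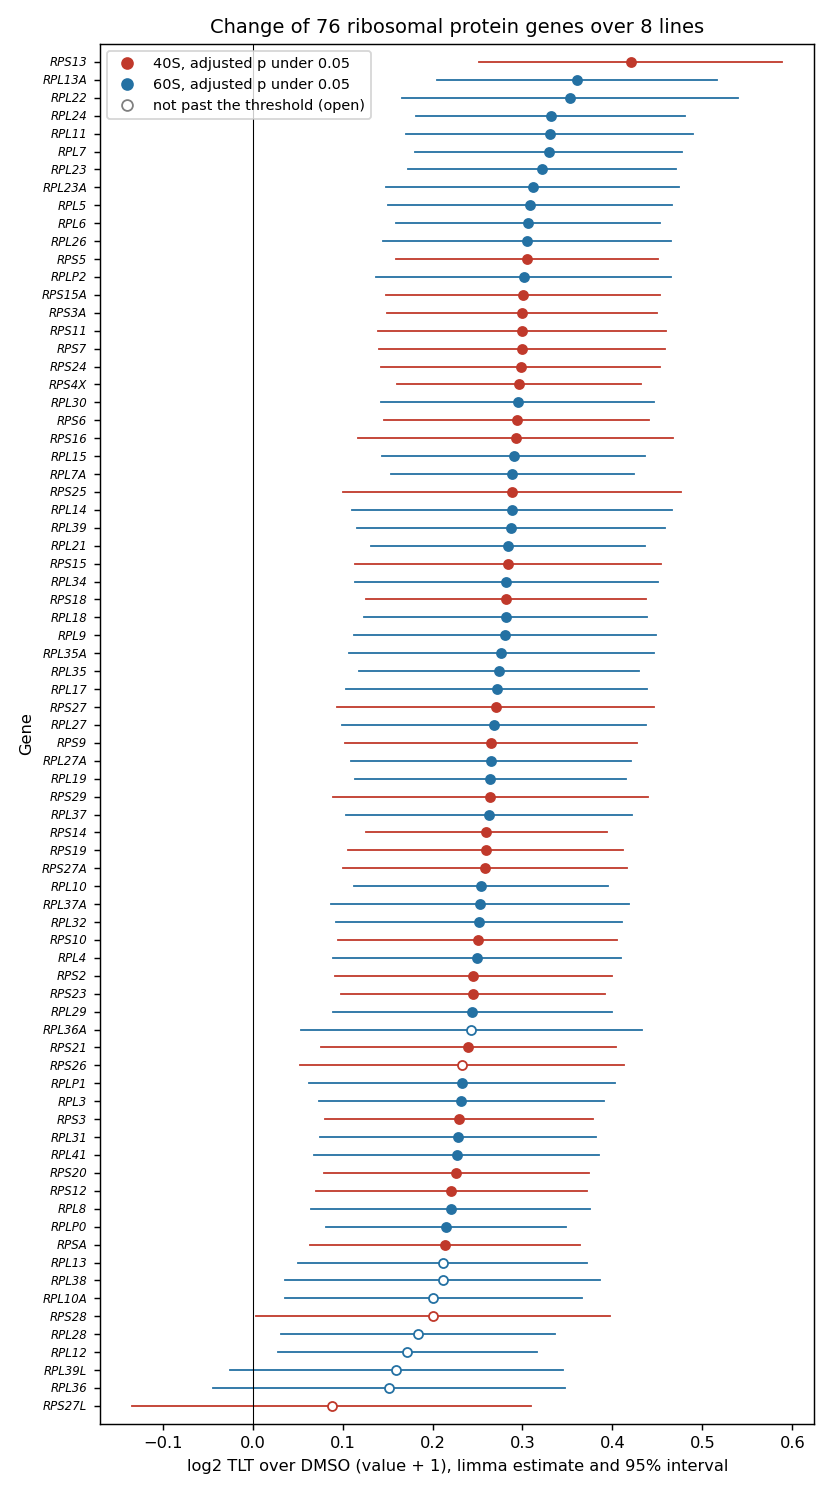
Fitted log2 change (TLT over DMSO, horizontal axis) and 95% interval of 76 of the 79 genes over 8 lines, ordered from the largest at the top to the smallest, with 40S genes in red, 60S genes in blue and open circles for genes that did not pass an adjusted p of 0.05. All points lie between 0.09 and 0.42, and the intervals of RPL39L, RPL36 and RPS27L reach below 0.

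The largest change was in RPS13, a protein of the 40S subunit. RPS13 values were 2033 to 10167 in TLT, with a median of 5613, and 1259 to 6376 in DMSO, with a median of 3994. The log2 fold change was 0.42 ± 0.08 (SE, n = 8 lines, limma, adjusted p = 0.0027), higher in 8 of 8 lines. HCC70 was the lowest library of RPS13 under both treatments, and its TLT value of 2033 lay below the DMSO values of other lines.

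RPL13A, a 60S protein that also takes part in the translational silencing of inflammatory mRNAs, ran from 6367 to 17173 in TLT, with a median of 10610, and from 4508 to 15226 in DMSO, with a median of 6940. Its log2 fold change was 0.36 ± 0.07 (SE, n = 8 lines, limma, adjusted p = 0.0040), higher in 8 of 8 lines. RPL22, a 60S protein that binds viral and cellular RNAs outside the ribosome, had 4994 to 9519 in TLT (median 7116) and 4249 to 8315 in DMSO (median 5309), a log2 fold change of 0.35 ± 0.09 (SE, adjusted p = 0.011, limma), with 7 of 8 lines higher. RPL24, at the interface that faces the small subunit, had a log2 fold change of 0.33 ± 0.07. RPL7, a 60S protein that binds ribosomal RNA, had 9821 to 32591 in TLT (median 15417) and 7723 to 20735 in DMSO (median 13400). Its log2 fold change was also 0.33 ± 0.07 (SE, adjusted p = 0.0050, limma). The SE of these values comes from the spread between lines, moderated by limma over all genes tested. Most of that spread is shared by the members, and the distance of a gene from the median of the 79 was not tested.

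RPL5 and RPL11 form a particle with the 5S ribosomal RNA that binds MDM2 and thereby stabilizes p53 when ribosome assembly fails. RPL11 had 9113 to 21197 in TLT (median 12837) and 7509 to 14186 in DMSO (median 9535), a log2 fold change of 0.33 ± 0.07 (SE, adjusted p = 0.0071, limma). RPL5 had 11360 to 19335 in TLT (median 16785) and 8830 to 17972 in DMSO (median 12721), a log2 fold change of 0.31 ± 0.07 (SE, adjusted p = 0.0095, limma). Both were higher in 8 of 8 lines, and for both MDA-MB-436 had the lowest DMSO value.

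The stalk of the large subunit, built of RPLP0 and the small acidic proteins RPLP1 and RPLP2, recruits the elongation factors. RPLP0 had a log2 fold change of 0.21 ± 0.06, RPLP1 of 0.23 ± 0.08 and RPLP2 of 0.30 ± 0.08 (SE, n = 8 lines, adjusted p = 0.023, 0.045 and 0.012 by limma). Each was higher in 7 of 8 lines on the deposited scale. With quantile normalization RPLP0, RPLP1 and RPLP2 stood at -0.020, -0.013 and 0.099, and none of them was called. RPLP0 values were 17238 to 42390 in TLT, with a median of 26946, and 13910 to 33480 in DMSO, with a median of 24488.

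Among 40S genes with known further roles, RPS6, the classic substrate of the S6 kinases, had 5893 to 43839 in TLT (median 17843) and 5108 to 28157 in DMSO (median 13582). Its log2 fold change was 0.29 ± 0.07 (SE, adjusted p = 0.0087, limma), higher in 8 of 8 lines. RPS4X, encoded on the X chromosome, had 0.30 ± 0.06 and RPS19, the gene most often mutated in Diamond-Blackfan anaemia, 0.26 ± 0.07, each higher in 8 of 8 lines. RPS3, which also acts in DNA repair, had 0.23 ± 0.07 and RPSA, once known as the laminin receptor, 0.21 ± 0.07. Each of these 5 genes passed the threshold on the deposited scale, and none did with quantile normalization. There RPS6 stood at 0.026, RPS4X at 0.047, RPS19 at 0.022, RPS3 at -0.042 and RPSA at -0.039. RPL10, a late-joining 60S protein that carries mutations in some T cell leukaemias, had 5814 to 27080 in TLT (median 12207) and 5740 to 21982 in DMSO (median 11118). The log2 fold change of RPL10 was 0.25 ± 0.07 (SE, adjusted p = 0.014, limma), with 8 of 8 lines higher. With quantile normalization it was 0.00058.

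Of the 12 genes that did not pass, 9 belong to the 60S and 3 to the 40S subunit, RPS26, RPS27L and RPS28. Their adjusted p lay between 0.052 for RPL13 and 0.55 for RPS27L, and 9 of these 12 had an unadjusted p under 0.05, as 76 of the 79 did. RPS27L, a paralog of RPS27 known as a target of p53, had 364 to 1648 in TLT (median 706) and 335 to 1681 in DMSO (median 724), a log2 fold change of 0.09 ± 0.10 (SE, adjusted p = 0.55, limma). It was higher in 5 of 8 lines, and without MDA-MB-157 its change was -0.0033. RPL36, a small 60S protein, had 2291 to 13548 in TLT (median 4338) and 1813 to 9378 in DMSO (median 3658), a log2 fold change of 0.15 ± 0.09 with 5 of 8 lines higher. RPL12, which sits at the base of the stalk, had 0.17 ± 0.07, and RPL28 0.18 ± 0.07. RPS28, a small 40S protein near the mRNA exit, had 0.20 ± 0.09 with 6 of 8 lines higher. RPL28 stood out by line: MDA-MB-157 held 32568 in TLT and 22060 in DMSO, far above the other lines, and the medians over all 8 lines were 5667 in TLT and 5167 in DMSO. The spread of the change over lines was widest for RPS27L (SD 0.30), RPL36 (SD 0.30), RPS28 (SD 0.28) and RPS25 (SD 0.28), a 40S protein needed for some viral internal ribosome entry sites, against a median SD of 0.22 over the 79 genes and 0.365 over all genes tested.

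Several members have a paralog that is also expressed, and the pairs did not all have the same call. RPS27 rose by 0.27 ± 0.08 (adjusted p = 0.029) against 0.09 ± 0.10 for RPS27L, and RPL39 by 0.29 ± 0.08 (adjusted p = 0.019) against 0.16 ± 0.09 for RPL39L (adjusted p = 0.18), by limma with n = 8 lines. RPL22 rose by 0.35 ± 0.09 against 0.03 ± 0.10 for RPL22L1 (adjusted p = 0.83), and RPL26 by 0.31 ± 0.07 against 0.25 ± 0.10 for RPL26L1 (adjusted p = 0.071). RPL36A had 0.24 ± 0.09 (adjusted p = 0.057) and RPL36AL 0.18 ± 0.06 (adjusted p = 0.052), while RPL7 stood at 0.33 against 0.20 ± 0.07 for RPL7L1 (adjusted p = 0.052). Of the 7 paralogs tested none was called by limma in either direction, with 7 of 7 positive and a median of 0.16. Over all genes tested, 15.04% were higher and 10.90% lower. The paralogs had lower mean DMSO values than their partners. Of other genes, 10.9% were called higher at a DMSO mean of 500 to 1000 and 34.4% at 2000 to 5000. A difference between the partners of a pair was not tested. RPL22L1 ran from 193 to 1204 in TLT and from 258 to 1066 in DMSO, and it was higher with TLT in 4 of 8 lines.

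The change was next compared between lines, where it differed far more than between genes. The median change of the 79 genes was 0.63 in MDA-MB-157, 0.42 in MDA-MB-436, 0.40 in HCC70, 0.30 in MDA-MB-468, 0.20 in HCC1143, 0.10 in HCC38, 0.09 in HCC1395 and -0.01 in MDA-MB-231. MDA-MB-157 showed the largest change for 79 of 79 genes, and MDA-MB-231 the smallest for 66. In MDA-MB-231 38 genes were higher with TLT and 41 lower, while in MDA-MB-157, MDA-MB-436, HCC70 and MDA-MB-468 all 79 were higher. Within a line the genes stayed close together: the SD among the 79 was 0.06 in MDA-MB-157 and at most 0.12 in HCC1143, against 0.60 to 0.85 over all genes. The subunits did not separate, with medians of 0.61 for 40S and 0.64 for 60S genes in MDA-MB-157 and 0.41 and 0.40 in HCC70, and over all lines 29 of 32 40S genes (median 0.26) and 38 of 47 60S genes (median 0.27) were higher.

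**Figure D2:**
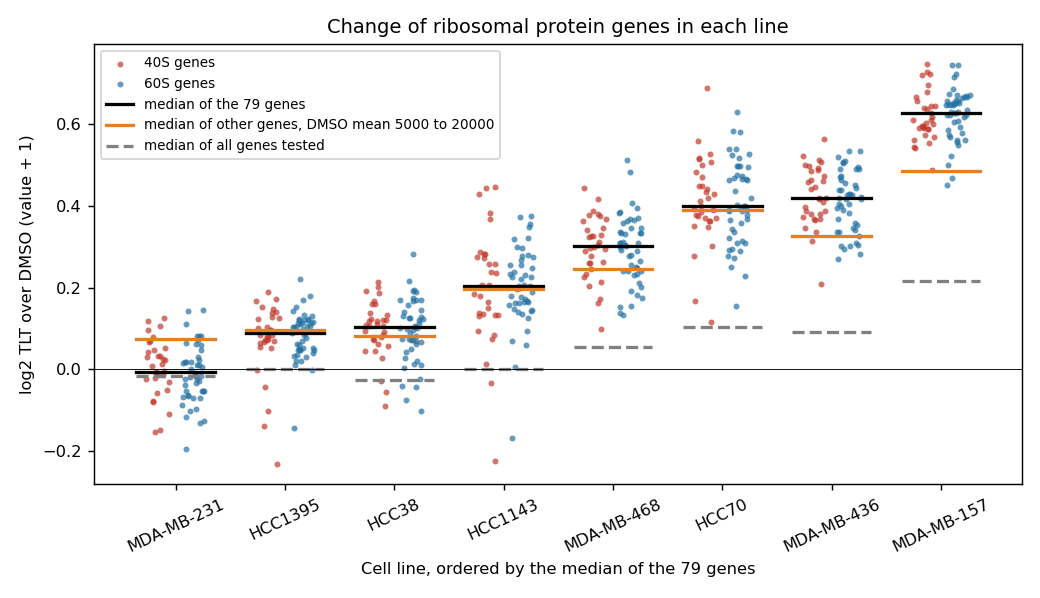
Log2 change (TLT over DMSO, vertical axis) of each ribosomal protein gene in each line, 40S genes in red and 60S genes in blue, with lines for the median of the 79 genes (black), of other genes with a DMSO mean of 5000 to 20000 (orange) and of all genes tested (grey, dashed). Black and orange lines lie close in most cell lines, with the widest gap in MDA-MB-157, at 0.63 against 0.48, and only in MDA-MB-231 and HCC1395 is the orange line higher.

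The share of the whole summed value that the 79 genes took does not depend on the scaling of a library. It was higher with TLT in 7 of 8 lines: 5.95% in TLT and 4.91% in DMSO for MDA-MB-157, 5.59% and 4.90% for MDA-MB-436, 4.11% and 3.68% for MDA-MB-468, 4.36% and 4.05% for HCC1143, 6.71% and 6.41% for HCC38, 2.97% and 2.71% for HCC70, and 4.43% and 4.36% for HCC1395. In MDA-MB-231 it was 4.39% in TLT and 4.51% in DMSO. The difference ran from -0.12 to 1.05 percentage points. The summed value of all genes, which is free to vary after upper quartile scaling, moved in a like order: its log2 ratio was 0.34 in MDA-MB-157, 0.28 in HCC70, 0.22 in MDA-MB-436, 0.13 in MDA-MB-468, 0.10 in HCC1143, 0.06 in HCC1395, 0.04 in HCC38 and 0.04 in MDA-MB-231. The 4 lines with the largest median change of ribosomal protein genes were also the 4 with the largest ratio of the total, and the part of that total in the result was not tested.

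**Figure D3:**
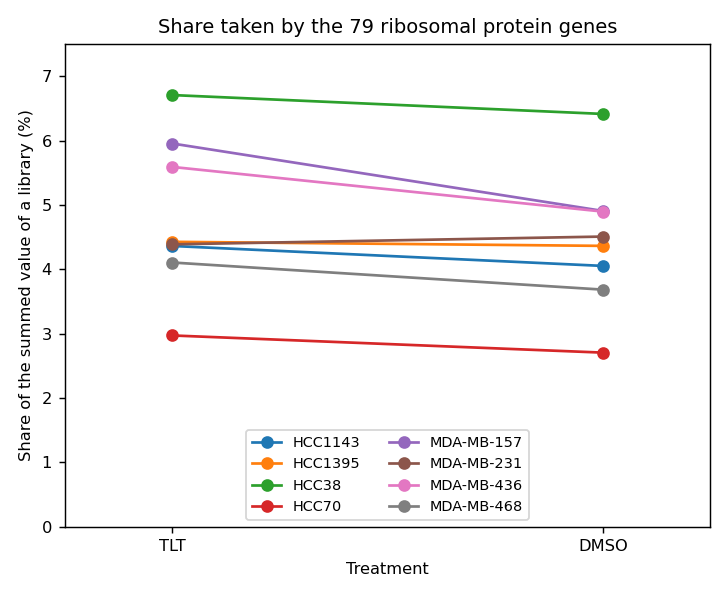
Share of the summed value of each library (vertical axis, %) taken by the 79 ribosomal protein genes, TLT on the left and DMSO on the right, with a line joining the libraries of each of the 8 cell lines. Shares run from 2.97% to 6.71% in TLT and from 2.71% to 6.41% in DMSO, and only the line of MDA-MB-231 is lower in TLT.

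Because ribosomal protein genes are highly expressed, they were set beside other genes of the same level. Among other genes the change was larger at higher DMSO levels from a mean of 100 upward, though not below it: the median log2 fold change was 0.06 for a DMSO mean of 10 to 100, -0.08 for a DMSO mean of 100 to 500, 0.00 for 500 to 1000, 0.07 for 1000 to 2000, 0.16 for 2000 to 5000, 0.23 for 5000 to 10000, 0.25 for 10000 to 20000 and 0.26 above. In the band of 5000 to 20000, which held 60 of the 79 genes and 368 others, the ribosomal protein genes had a median of 0.27 and the others 0.24. In that band 54 of 60 (90%) against 56.5% were called higher. The difference of the medians within lines averaged 0.03 ± 0.06 (SD, n = 8 lines), above 0 in 6 of 8 lines, from -0.07 in MDA-MB-231 to 0.14 in MDA-MB-157. The difference at this level was thus smaller than its spread between lines. Where the members stood apart was in how little they varied: the SD of the fitted changes was 0.04 among the 60 and 0.18 among the 368.

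Below a DMSO mean of 5000 the gap was wider. The 15 ribosomal protein genes of 500 to 5000 had a median of 0.26 and 9 of 15 were higher (60%), against a median of 0.06 and 18.6% of 6478 other genes, though 12 of these 15 lie above 2000. For those 12 the medians were 0.28 against 0.16, with 9 of 12 called against 34.4%. Above 20000 the 4 ribosomal protein genes, among them RPLP0 and RPL8, had a median of 0.23 against 0.26 for 31 others, and 4 of 4 against 74.2% were called.

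**Figure D4:**
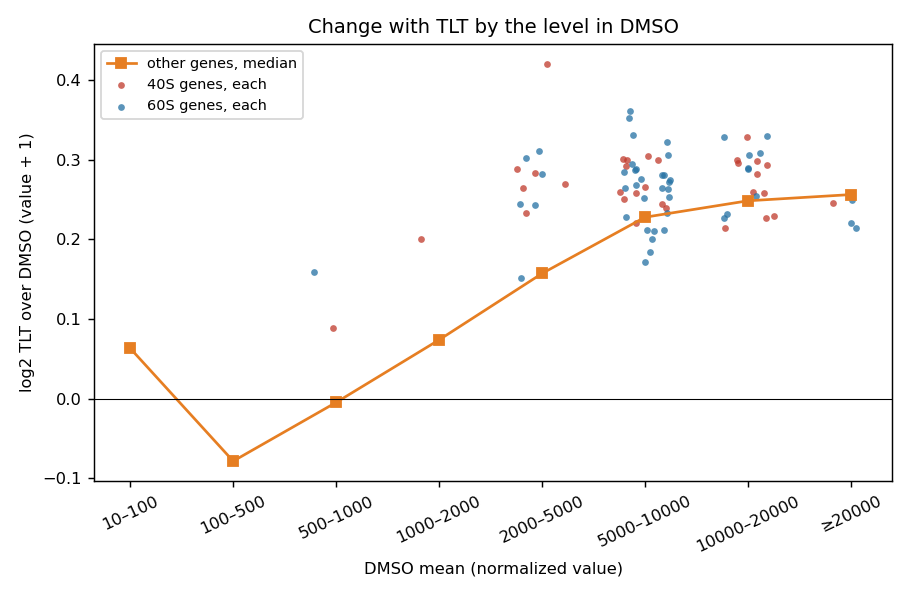
Fitted log2 change (TLT over DMSO, vertical axis) of each ribosomal protein gene (40S red, 60S blue) by bin of DMSO mean (horizontal axis, normalized value), with the median of the other genes of each bin in orange. The orange medians stand at 0.06 at 10 to 100 and climb from -0.08 at 100 to 500 to 0.26 above 20000, and the ribosomal protein genes of the highest bins lie around them.

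The change of each gene was followed over the lines. Pearson's r between the changes of 2 members over 8 lines had a median of 0.93 over 3081 pairs, and the lowest was 0.50. Each member's r with the median of the others had a median of 0.97, with the lowest, 0.81, for RPS27L, and 72 of 79 lay above 0.9. For other genes with a DMSO mean of at least 5000, r with the median of the members had a median of 0.80 (399 genes), and with a mean of at least 500 it was 0.40 (6877 genes). All these points share libraries, depth and scaling, so they describe a shared pattern and carry no test.

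Levels in the vehicle differed far more between lines than TLT moved them. The highest DMSO value of a gene was 1.88 times the lowest for RPL12 and 7.26 times for RPL26, a 60S protein that sits at the tunnel exit. HCC70 was lowest for 50 of the 79 genes and HCC38 highest for 34. Per kilobase of transcript, high mean levels were those of RPL8, with 34338 in TLT and 28550 in DMSO, RPL41, the smallest of these proteins, with 31137 and 26751, RPS18 with 30037 and 25000, and RPS2, with 27100 and 22843. Lengths come from GENCODE on GRCh37, where RPL14 is listed with 7072 and RPL37 with 7573 bases, so levels per kilobase of such members are low and the order is given for its top only. These 4 were called higher, with log2 fold changes of 0.22 to 0.28. With quantile normalization none of the 4 was called, with RPL8 at 0.026, RPS18 at 0.038, RPL41 at -0.015 and RPS2 at -0.0058.

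Members that lie close together on a chromosome shared their levels across lines. After the median of the 79 genes was subtracted from each library, 42 pairs within 10 Mb had a median r over 8 lines of 0.53 in TLT and 0.51 in DMSO, and 2901 pairs on different chromosomes had 0.00 in TLT and -0.01 in DMSO. The 372 other genes with a DMSO mean of at least 5000 and a position had 0.30 in TLT and 0.32 in DMSO within 10 Mb, and -0.01 in each on different chromosomes. The 79 genes lie on 21 chromosomes, 12 of them on chromosome 19. Among members, the 138 pairs more than 10 Mb apart on the same chromosome had a median r of 0.04 in TLT and in DMSO. Examples of such pairs are the genes of chromosomes 16 and 5, which all lie that far apart. DMSO levels in MDA-MB-157 are given on the log2 scale, relative to the line median and to each gene's own mean over the lines. They were -0.54 for RPS2, -0.34 for RPS15A and -1.20 for RPL13, the 3 genes of chromosome 16. Of the 3 genes of chromosome 5, RPL37 stood at 0.76 and RPS14 at 0.84 in the same libraries, while RPS23 stood at -0.01. The change with TLT itself had a median r of 0.35 within 10 Mb against 0.00 across chromosomes, and 0.04 among the other genes within 10 Mb. Gene copy number was not analysed here.

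**Figure D5:**
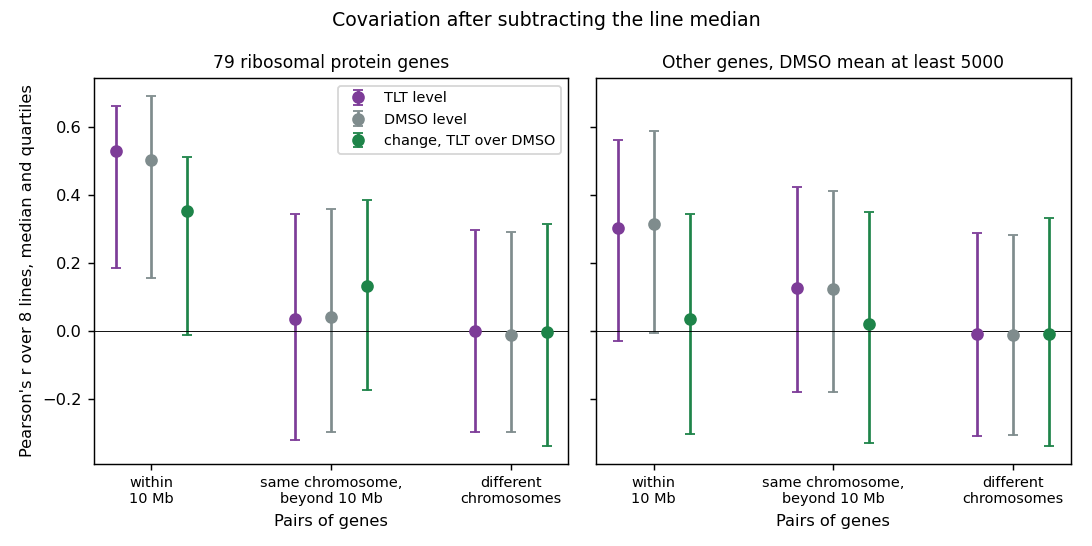
Pearson's r over 8 lines between pairs of genes (vertical axis) after the line median was subtracted, as median and quartiles for TLT levels (purple), DMSO levels (grey) and the change (green), for pairs within 10 Mb, further apart on a chromosome and on different chromosomes, with the 79 ribosomal protein genes on the left and other highly expressed genes on the right. Levels of close pairs stand at 0.53 in TLT and 0.51 in DMSO on the left, and pairs on different chromosomes at about 0.

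Most members have annotated pseudogenes, with 1586 in all, a median of 13 and up to 133 for RPL21, and reads of 50 bases can be split between a gene and its copies. The 39 genes with more than 13 pseudogenes had a median change of 0.28 and the other 40 had 0.26, and how far split reads move the value of a single gene was not tested. The libraries carry no strand, so overlapping genes cannot be told apart.

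Other mRNAs of the TOP class, from lists named with earlier results known, are given next. Of 17 that serve translation 12 were higher and none lower, with a median of 0.27: EIF3E, a subunit of initiation factor 3, had 5151 to 14868 in TLT (median 7415) and 3516 to 9039 in DMSO (median 5691), a log2 fold change of 0.50 ± 0.07 (SE, adjusted p = 0.00039, limma). EIF2S3, the gamma subunit of initiation factor 2, had 0.37 ± 0.07 and EIF4B, which stimulates the EIF4A helicase, 0.34 ± 0.06, each higher in 8 of 8 lines. FAU, which encodes the 40S protein eS30 fused to a ubiquitin-like protein, had 0.34 ± 0.08, and GNB2L1, the 40S scaffold also known as RACK1, 0.29 ± 0.07, both past the threshold. EIF4A2 was at 0.04 ± 0.08. Of 9 TOP mRNAs with other functions 7 were higher and none lower, with a median of 0.35, among them NACA and BTF3, the chaperone at the tunnel exit, at 0.41 ± 0.08 and 0.37 ± 0.08, and NAP1L1, a histone chaperone, at 0.33 ± 0.07. Of 8 host genes of small nucleolar RNAs, 3 were higher and none lower, with SNHG7 at 0.55 ± 0.11, SNHG3 at 0.61 ± 0.18 and SNHG1 at 0.19 ± 0.06. These lists were not matched on level, and most of the TOP mRNAs for translation had a DMSO mean above 2000. Of other genes at 2000 to 5000, 34.4% were called higher, with a median of 0.16. The shares were 53.3% at 5000 to 10000, 67.5% at 10000 to 20000 and 74.2% above, with medians of 0.23 to 0.26. With quantile normalization the 8 lists together held 15 genes called higher and 14 lower, against 35 and 10 on the deposited scale, where 15.04% of all genes were higher.

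Of 16 genes of TOP and cap regulation, 4 were higher and 3 lower, with a median of 0.01, and these counts, like those of the next 3 lists, are read beside the 15.04% higher and 10.90% lower over all genes: EIF4A1, the helicase that opens the start of mRNAs, had 14286 to 46743 in TLT (median 24546) and 8779 to 30499 in DMSO (median 18811), a log2 fold change of 0.60 ± 0.07 (SE, adjusted p = 0.00017, limma). EEF2K, the kinase that slows elongation and a known target of mTORC1 and AMPK signalling, had 256 to 786 in TLT (median 304) and 410 to 1460 in DMSO (median 659), a log2 fold change of -0.87 ± 0.10 (SE, adjusted p = 0.00025, limma), lower in 8 of 8 lines. EIF4EBP2, a repressor of the cap-binding protein EIF4E, had -0.37 ± 0.09 and MTOR -0.25 ± 0.08, while CNBP, which binds TOP mRNAs, had 0.28 ± 0.06. LARP1 itself stood at -0.03 ± 0.06 (adjusted p = 0.74).

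Of 11 transcription factors listed for ribosomal protein promoters, general factors included, 3 were higher and 1 lower. YY1 had 1954 to 3712 in TLT (median 3121) and 1252 to 2978 in DMSO (median 2179), a log2 fold change of 0.49 ± 0.06 (SE, adjusted p = 0.00034, limma), higher in 8 of 8 lines. GTF2H1, of the general factor TFIIH, had 0.36 ± 0.08, and ZBTB33, a zinc finger protein that binds methylated DNA, -0.64 ± 0.17. MYC was at -0.11 ± 0.15 (adjusted p = 0.61).

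Genes that carry or assemble ribosomal proteins were examined next. Of 16 chaperones and importers 5 were higher and 4 lower. IPO5, an importin that brings ribosomal proteins into the nucleus, rose by 0.34 ± 0.08. NMD3, the adapter that exports the 60S subunit, had 685 to 1531 in TLT (median 969) and 1104 to 2393 in DMSO (median 1372), a log2 fold change of -0.47 ± 0.09 (SE, adjusted p = 0.0028, limma), lower in 8 of 8 lines. RRS1, which loads RPL5 and RPL11 into the 60S precursor, was at -0.77 ± 0.20, lower in 7 of 8 lines and at 0.52 in HCC1143. HEATR3, which works on the same pair, was at -0.36 ± 0.09, lower in 8 of 8 lines. Both passed the threshold, and both were named after their values were seen. Of the 5 higher genes of this list only IPO5 and NACA, given above, are named.

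Of 10 genes of the p53 branch that answers free RPL5 and RPL11, 2 were higher and 2 lower, with a median of -0.13. CDKN1A, the cell cycle inhibitor p21, had 2449 to 12517 in TLT (median 4738) and 502 to 4307 in DMSO (median 1641), a log2 fold change of 1.64 ± 0.16 (SE, adjusted p = 9.3e-05, limma), and GADD45A had 0.83 ± 0.15. ZMAT3, also a target of p53, was at -0.68 ± 0.15 and MDM4, an inhibitor of p53, at -0.60 ± 0.14, while MDM2 was at -0.21 ± 0.10 (adjusted p = 0.12).

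The mitochondrial ribosome, made of other proteins encoded in the nucleus, was added as a contrast after the data were seen. Of its 76 genes 13 (17.1%) were higher and 2 lower, with a median of 0.09, near the background of 15.04% over all genes. Their DMSO means ran from 315 to 2418, with a median of 842, below those of most of the cytosolic genes, so level and kind of ribosome cannot be told apart in this contrast.

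The calls rest on scaling and on the block. When libraries were scaled to the same sum, the median of all genes moved by -0.15 on the log2 scale, 29 of the 79 genes were higher with 2 below 0, and the median of the 79 was 0.11, which stood 0.21 above that of all genes, against 0.22 on the deposited scale. With quantile normalization that distance was 0.04. The share of higher calls among all calls was 58.0% on the deposited scale, 24.2% at equal sums and 47.2% with quantile normalization. Without the block for cell line limma called none of the 79 genes, and none had an unadjusted p under 0.05. With single lines left out, omission of MDA-MB-436 gave 31 calls, of MDA-MB-468 37, of HCC70 42 and of any other line 55 to 74, and 31 genes were called in all 8 omissions. The lane was inferred from the closing digit of each library's name, 1 for the MDA-MB lines and 2 for the HCC lines. The 4 MDA-MB lines alone gave 5 calls with a median change of 0.34. The 4 HCC lines alone gave no call by limma, with 33 genes at an unadjusted p under 0.05 and a median of 0.20.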

How the data were processed

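RNA of 8 cell lines, each with TLT and with DMSO, was sequenced by the authors (poly(A) selected, single reads of 50 cycles, no strand). The authors aligned the reads to hg19 with MapSplice and made gene values with RSEM. The deposited signal had been divided by each library's upper quartile and is not a count. Their own test was DESeq2 1.4.5, per the labels, and the counts behind it were not analysed here. Another sheet with the same values and the authors' own fold changes were not used. Of all rows, 29 without a gene name (0.0398% of the signal) were left out.

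The members and lists were chosen with earlier results of these data known. Genes with a mean of at least 10 were kept, and limma 3.58.1 (R 4.3.3) was run on log2(value + 1) with terms for treatment and line, moderated with trend and robust options, and calls were made at 0.05 after Benjamini-Hochberg adjustment. Such fold changes understate those of low genes. Labels pair the libraries by line. Deviations from the mean of each treatment had r of 0.900 to 0.954 between the libraries of a pair. Of values under 60, 82.9% to 84.8% were whole multiples of a step within 0.01 reads, so reads were not recovered and no count test was run. The fit was tested on simulated data.

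Named were the 6 largest and 6 smallest changes of members, the 4 widest SDs, the 5 highest DMSO levels per kilobase, genes beside the threshold, members of known role and paralog pairs, and up to 3 genes of smallest p from each of 8 lists, with a few further list genes named after their values were seen. A few genes of these sets are counted but not reported here by name. Start sites are from RefSeq (GRCh38.p14). Alternatives were no block, 4 scalings, moderation, filters, pseudocounts, thresholds, limits on members, each line or lane left out, and omission of 2 lines. Python 3.11.15 with pandas 2.3.3 and matplotlib 3.10.9 made summaries and figures.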

Additional observations from a re-analysis of the deposited data

Results flagged for a closer look

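The TLT values, DMSO values and per-line changes of 56 named genes, and shares and median changes of the members, made 172 sets of 8 values. In each set the gap from the most extreme line to the next was divided by the range. Of these sets 19 passed 0.526, Dixon's limit for 8 values, which about 1 in 20 sets of independent, normally distributed values pass. Levels were not put on a log scale, and the TLT and DMSO values of a gene come from the same lines. That rate therefore does not apply to these sets. Among ribosomal protein genes the extreme line was mostly MDA-MB-157. It held 32568 of RPL28 in TLT and 22060 in DMSO, 32591 of RPL7 in TLT, 2388 of RPL39L in TLT, 20339 of RPL39 in TLT, and 8966 of RPS27 in TLT and 5683 in DMSO. The change of RPS27L in MDA-MB-157, 0.73, was the only change so far from the others. HCC38 stood apart in DMSO for RPL36A, with 6296.

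Among the related genes, HCC38 was the extreme line for EIF2S3, with 15984 in TLT and 14601 in DMSO, for SNHG7 with 1704 in TLT, for ZBTB33 with 1801 in TLT, and for ZMAT3 with 370 in TLT and 416 in DMSO. HCC70 stood apart for CDKN1A, with 12517 in TLT, and for NMD3, with 2393 in DMSO. MDA-MB-157 held 426 of SNHG3 in DMSO and HCC1395 held 1460 of EEF2K in DMSO. The median change of the 79 genes and their share did not stand apart in any line.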

How the results depend on the processing

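The main count was 67 ribosomal protein genes higher. It was 0 without the replicate block, 29 with libraries scaled to the same sum, 30 with the same sum of other genes, 2 with quantile normalization, 28 without trend and robust moderation, 18 at an adjusted p under 0.01, 5 in the MDA-MB lines alone, 0 in the HCC lines alone, 32 without both MDA-MB-157 and HCC70, and 31 to 74 with 1 line left out. With median ratio scaling 71 were called, and filters, pseudocounts, an adjusted p under 0.10 and member limits of 100 and 5000 kept the count between 60 and 75. The median change of 0.27 was 0.041 with quantile normalization, 0.11 at the same sum, 0.12 at the same sum of other genes, 0.18 without MDA-MB-157 and HCC70, and 0.22 to 0.31 with 1 line left out. The difference from other genes of the same DMSO level stayed between 0.01 and 0.06 under every alternative run for it. Of the named genes, 45 of 57 were called, against 0 without the block, 17 with quantile normalization, 26 at an adjusted p under 0.01, 17 in the MDA-MB lines and 2 in the HCC lines. Of the list genes 45 were called, against 0, 29, 26, 20 and 2 under the same settings.

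Signs turned for RPS27L at the same sum (-0.063), at the same sum of other genes (-0.058), in the HCC lines alone (-0.092), without MDA-MB-157 and HCC70 (-0.023) and with 1 line left out (-0.0033 to 0.13). They turned for RPL22L1 at -0.12, -0.11 and, in the HCC lines, -0.11, with -0.014 to 0.098 when 1 line was left out, and for RPL36 at the same sum (-0.00046). With quantile normalization they turned for RPL28 (-0.039), RPL12 (-0.058), RPL36 (-0.048), RPL41 (-0.015), RPS2 (-0.0058), RPLP0 (-0.020), RPLP1 (-0.013), RPSA (-0.039) and RPS3 (-0.042). In the lane fits the cause of the lower counts includes the smaller number of lines, and otherwise the cause was not tested.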
